A study of Rattus norvegicus and Bos taurus with 12 samples.

Results

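The genes described here are the components of the Wnt and Notch signaling pathways. They were found by a fixed pattern on gene symbols that covers Wnt ligands, Frizzled and Ror receptors, Lrp co-receptors, secreted modulators, the Axin, Gsk3, Nkd and β-catenin class of intracellular proteins, Tcf/Lef factors, Notch receptors, their Jagged and Delta-like ligands, the Fringe modifiers, and the Hes and Hey repressors. The pattern matched 15 of the 2115 genes listed for bovine cardiac fibroblasts (Cfib) and 42 of the 7052 genes listed for adult rat ventricular myocytes (ARVM). These were 49 different symbols, of which 8 were listed in both. One rat match, Ctnnbl1, is a splicing factor that was matched by its symbol and is counted in neither pathway, so 28 rat members belonged to the Wnt pathway and 13 to the Notch pathway. The bovine members were 11 Wnt and 4 Notch genes.

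RNA sequencing was done on 12 libraries in 4 groups of 3. Control (CO) Cfib came from the right ventricular (RV) free wall of neonatal calves housed at the ambient altitude of Denver, and PH Cfib from neonatal calves with pulmonary hypertension (PH) after exposure to reduced atmospheric pressure. Both were grown as low-passage cultures and moved to serum-free medium. The ARVM came from healthy Sprague Dawley rats and were either freshly isolated or kept for 7 days in medium conditioned by PH Cfib (PH-CM), so that the PH-CM and the time in culture cannot be told apart, and ARVM cultured without PH-CM were not analysed here. GEO's treatment labels name cow serum for all libraries, whereas the study's methods describe conditioned medium for the myocytes, and the groups are named here after the sample names and methods. The Cfib came from 3 animals in each group. For the ARVM the sources used here do not say whether each library was a separate animal, so those p-values measure the spread between libraries, which may be technical.

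In the canonical Wnt pathway, a secreted Wnt that has been lipid-modified by porcupine binds a Frizzled receptor with a co-receptor, which stops the Axin and Gsk3 complex from marking β-catenin for destruction, and β-catenin then acts with Tcf/Lef factors on target genes. Sfrp proteins, Frzb, Wif1 and the Dkk family modulate this signal outside the cell, R-spondins amplify it, and Ror receptors carry Wnt5a-type signals that do not need β-catenin. In the Notch pathway, a Jagged or Delta-like ligand on one cell triggers cleavage of a Notch receptor on its neighbour, and the released receptor fragment acts with Rbpj on Hes and Hey genes. Both pathways shape the developing heart and are known in cardiac repair and fibrosis.

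The genes listed were already selected by the authors for a difference between groups, so nearly all of them pass a test. With limma on log2(value + 1), 97.5% of the listed Cfib genes and 97.6% of the listed ARVM genes passed a Benjamini-Hochberg adjusted p of 0.05, and the number of members that passed is not a finding. In every one of the 15 bovine and 42 rat members, the 3 libraries of one group all lay above the 3 of the other, as they did for each of the 2115 and 7052 genes listed. Pathway genes that are not listed were not analysed here.

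The promoters of 5 rat members are shown because they carry a motif of the factor at the end of each pathway. Of the 42 rat members, 30 matched a single promoter in RefSeq (assembly GRCr8), taken as the 250 bases before the gene start. The Tcf/Lef motif CTTTGAT, or its reverse complement ATCAAAG, stood in 2 of these 30 (6.67%) and in 1054 of 33469 promoters of the same length (3.15%). The Rbpj motif GTGGGAA, or its reverse complement TTCCCAC, stood in 5 of 30 (16.7%) and in 1764 of all promoters (5.27%). The members had a median GC content of 64.2% against 51.2% for all promoters, and a match of these letters is a description, not a bound site. Lfng was chosen because it is listed in both species, and Dll1, Axin2, Nkd1 and Hey2 were chosen after their values were seen. Capitals mark the motif, and each sequence reads 5′ to 3′ on the strand of its gene.

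The Axin2 promoter, chr10:94398535-94398784 on the plus strand, and the Nkd1 promoter, chr19:34722847-34723096 on the minus strand, held the Tcf/Lef motif. Both encode intracellular brakes on Wnt signaling.
Axin2: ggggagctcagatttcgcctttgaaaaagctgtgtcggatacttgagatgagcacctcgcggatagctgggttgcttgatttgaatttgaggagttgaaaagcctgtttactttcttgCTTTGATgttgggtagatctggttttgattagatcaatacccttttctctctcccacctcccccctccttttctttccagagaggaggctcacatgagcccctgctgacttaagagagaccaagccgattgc
Nkd1: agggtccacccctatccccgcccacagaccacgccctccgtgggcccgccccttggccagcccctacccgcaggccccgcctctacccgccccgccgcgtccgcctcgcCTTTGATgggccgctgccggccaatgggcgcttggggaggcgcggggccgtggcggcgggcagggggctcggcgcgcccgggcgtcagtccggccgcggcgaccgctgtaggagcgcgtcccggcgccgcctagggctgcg

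The Rbpj motif stood in the promoters of the Notch target Hey2 (chr1:28640850-28641099, plus strand), the Notch modifier Lfng (chr12:19152919-19153168, minus strand) and the ligand Dll1 (chr1:64993275-64993524, minus strand). It was also found in Fzd9 and Wnt9a.
Hey2: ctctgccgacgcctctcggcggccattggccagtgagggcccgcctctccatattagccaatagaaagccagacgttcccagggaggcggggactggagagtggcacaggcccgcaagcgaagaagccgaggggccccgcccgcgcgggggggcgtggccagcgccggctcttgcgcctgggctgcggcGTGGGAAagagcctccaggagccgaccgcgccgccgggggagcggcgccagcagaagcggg
Lfng: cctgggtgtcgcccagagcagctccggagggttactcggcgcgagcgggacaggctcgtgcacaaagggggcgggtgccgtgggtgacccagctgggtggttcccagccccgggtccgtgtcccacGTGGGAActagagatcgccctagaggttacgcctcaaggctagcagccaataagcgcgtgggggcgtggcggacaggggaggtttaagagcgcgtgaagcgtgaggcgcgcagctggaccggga
Dll1: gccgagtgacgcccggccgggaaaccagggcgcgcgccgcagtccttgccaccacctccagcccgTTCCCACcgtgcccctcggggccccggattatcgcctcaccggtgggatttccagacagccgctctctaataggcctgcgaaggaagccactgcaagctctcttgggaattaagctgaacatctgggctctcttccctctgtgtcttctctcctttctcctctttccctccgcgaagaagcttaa

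In Cfib, Wnt and Notch genes were mostly higher in PH. All 15 members passed the test, 12 of them higher and 3 lower in PH Cfib, beside 58.2% of all listed genes called higher and 39.4% called lower. The 4 Notch members (HEYL, HES1, JAG1 and LFNG) all rose, and the 11 Wnt members divided into 8 that rose and 3 that fell (FZD3, FZD1 and CTNNB1). The median log2 fold change was 0.86 over the 15 members, against 0.33 over all listed genes, and ran from −0.44 for FZD3 to 2.03 for FZD4. The values are not whole multiples of 1 step a library, as the normalized counts that the study's methods describe would be. Whether they are scaled by gene length was not settled and the depth is unknown, so levels are compared only within a gene. All listed genes together leaned toward PH, and rescaling the libraries by the median of ratios moved the median gene by −0.27 on the log2 scale. On that scale the median of the members was 0.59. PH Cfib then had the higher mean for 11 members and the lower mean for 4, with 7 and 3 of these called.

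**Figure D1:**
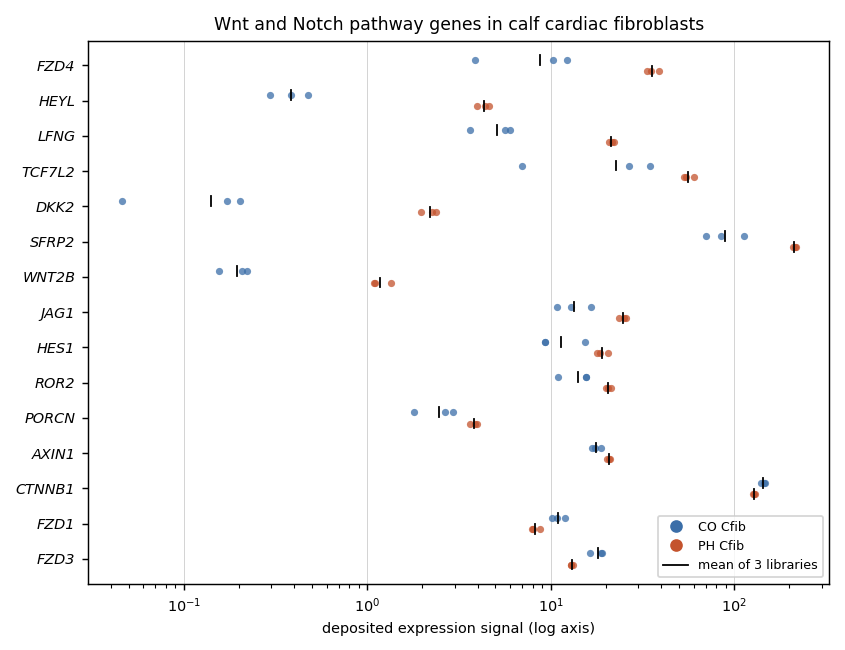
Expression of the 15 Wnt and Notch members in Cfib, 1 line a gene, as the deposited normalized value on a log axis. Each point is a library of the CO or PH group and the bar is the mean of 3 libraries. For every gene the 3 libraries of one group lie apart from the 3 of the other, as for all 2115 listed genes.

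JAG1, a membrane ligand of Notch, had a level of 16.5, 12.9 and 10.8 in CO Cfib 1 to 3 and of 25.7, 25.1 and 23.6 in PH Cfib 1 to 3. It rose by 0.86 ± 0.14 on the log2 scale (SE, n = 3 and 3, limma adjusted p = 0.00146). LFNG, a Fringe glycosyltransferase that alters which ligands a Notch receptor responds to, measured 5.65, 3.61 and 6.03 in CO and 21.5, 22.1 and 20.7 in PH Cfib. The PH libraries were close to each other and 4.20-fold above the CO mean, a log2 fold change of 1.90 ± 0.16 (limma adjusted p = 8.85e-05).

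HEYL is a transcriptional repressor induced by Notch. It was low in CO Cfib, at 0.477, 0.383 and 0.296, and reached 4.59, 4.38 and 3.97 in PH Cfib. The mean was 11.2-fold higher, and on the log2(value + 1) scale, which understates the change of low genes, the rise was 1.94 ± 0.09 (limma adjusted p = 8.04e-06). HES1, the best known Notch target and an immediate repressor, had levels of 9.31, 9.31 and 15.3 in CO and 18.6, 20.5 and 17.8 in PH. CO Cfib 3 lay nearest to the PH group, and the log2 fold change of 0.73 ± 0.19 (limma adjusted p = 0.00882) shrank to 0.46 with median-of-ratios scaling, where the adjusted p was 0.0663.

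On the ligand side of the Wnt pathway, WNT2B and PORCN were listed. WNT2B, a canonical ligand, stood at 0.156, 0.221 and 0.208 in CO Cfib and at 1.34, 1.09 and 1.11 in PH Cfib. Every PH library was thus several times above every CO library, and the mean was 6.06-fold higher. On the log2(value + 1) scale the rise was 0.87 ± 0.08 (limma adjusted p = 9.97e-05), and with a pseudocount of 0.1 it was 2.12. PORCN, the acyltransferase that Wnt proteins need for secretion, measured 2.64, 2.92 and 1.80 in CO and 3.94, 3.63 and 3.88 in PH. Its log2 fold change was 0.49 ± 0.14 (limma adjusted p = 0.0114), and 0.28 with an adjusted p of 0.0974 after the rescaling.

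The receptors went in both directions. FZD4, a Frizzled that also binds the non-Wnt ligand norrin, had the largest log2 fold change of the 15 members on the value + 1 scale, though not with a pseudocount of 0.1 (2.17, against 3.32 for DKK2 and 3.20 for HEYL). Its level was 12.2, 10.3 and 3.88 in CO Cfib and 38.9, 33.5 and 35.1 in PH Cfib, a log2 rise of 2.03 ± 0.36 (limma adjusted p = 0.00188). With an unequal-variance test, run as an alternative, the adjusted p for FZD4 was 0.0502. ROR2, the Wnt5a receptor, was at 15.6, 15.6 and 11.0 in CO and at 21.4, 20.4 and 20.1 in PH. CO Cfib 3 was the lowest library for FZD4 and for ROR2, and the ROR2 rise of 0.54 ± 0.14 (limma adjusted p = 0.00803) became 0.27 with an adjusted p of 0.0956 after the rescaling. FZD3, better known from planar cell polarity and axon guidance, fell from 18.7, 16.3 and 19.1 to 13.0, 12.9 and 13.3, a log2 fold change of −0.44 ± 0.08 (limma adjusted p = 0.00210). FZD1 fell from 11.9, 10.9 and 10.2 to 8.73, 8.05 and 7.87, a log2 fold change of −0.38 ± 0.09 (limma adjusted p = 0.00538). No PH library overlapped a CO library for any of these 4 receptors, as was so for all 2115 listed genes.

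Both listed secreted modulators rose. DKK2, a secreted ligand of the Lrp co-receptors, was low in CO Cfib at 0.172, 0.202 and 0.0459 and measured 2.38, 1.97 and 2.24 in PH Cfib. Its mean was 15.7-fold higher, the highest ratio of means among the 15 bovine members, with a log2 fold change of 1.49 ± 0.09 on the value + 1 scale (limma adjusted p = 2.24e-05). The CO means of DKK2, HEYL and WNT2B were 0.140, 0.385 and 0.195. These genes thus met the authors' filter of a value above 1 only through PH Cfib, and their ratios rest on CO values near 0. SFRP2, a soluble Frizzled-like protein of fibroblasts that can act on procollagen processing, was expressed in both groups. It stood at 112, 70.3 and 84.7 in CO and at 213, 208.6 and 216 in PH, a log2 rise of 1.27 ± 0.16 (limma adjusted p = 0.000447).

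Inside the cell the changes were smaller or less even. CTNNB1, which encodes β-catenin, had the smallest change in size of the 15 members, at 146, 147 and 139 in CO and 126, 129 and 129 in PH Cfib. Its log2 fold change of −0.17 ± 0.05 (limma adjusted p = 0.0196) did not pass without PH Cfib 1, 2 or 3 (adjusted p 0.0618 to 0.0666). AXIN1, the scaffold of the β-catenin destruction complex, measured 16.9, 17.4 and 18.7 in CO and 20.9, 21.1 and 20.2 in PH. Its rise of 0.22 ± 0.06 (limma adjusted p = 0.0141) turned to −0.05 with median-of-ratios scaling, where the adjusted p was 0.511, and was not called without PH Cfib 2 (adjusted p = 0.0613). TCF7L2, a Tcf/Lef factor that brings β-catenin to DNA, had levels of 34.6, 26.9 and 7.01 in CO and 60.1, 54.6 and 53.4 in PH. CO Cfib 3 stood far below the other control libraries for this gene, and its log2 fold change of 1.51 ± 0.53 (limma adjusted p = 0.0275) was 0.86 without that library. The call for TCF7L2 was lost without any 1 of the 3 PH libraries (adjusted p 0.0611 to 0.0728).

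The 2 groups of Cfib libraries differed in their spread. The median coefficient of variation of the 15 members was 23.4% in CO Cfib and 4.28% in PH Cfib, beside 13.7% and 5.01% over all listed genes. CO Cfib 3 lay farthest from its group mean for 8 of the 15 members.

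Of 129 other pathway symbols on 4 companion lists, 22 were listed for Cfib, and 17 of these rose and 5 fell. Of all listed Cfib genes, 58.2% were called higher and 39.4% lower. The 129, like the 57 and 22 below, count symbols. WISP1, WISP2 and AES each stand there under an old and a new name, so the genes are fewer. Of 57 other Wnt pathway genes, 10 were listed and 9 rose, led by the atypical small GTPase RHOU (log2 fold change 3.03), the glypican GPC3 (1.64) and the planar polarity protein PRICKLE1 (1.46), while the co-repressor TLE1 fell (−0.60). Of 22 symbols of genes known to respond to Wnt signals, 4 were listed. WISP2, a matricellular protein, rose (2.33), as did BAMBI (0.56) and the cyclin CCND2 (0.52), while BIRC5, which encodes the mitotic and anti-apoptotic protein survivin, fell (−3.28). Of 39 other Notch pathway genes, 6 were listed, with the Numb-like adaptor NUMBL (1.33), the γ-secretase subunit PSEN2 (0.65) and DTX3 (0.42) highest among the 4 that rose, and CTBP2 (−0.25) and the γ-secretase subunit APH1A (−0.13) lower. The APH1A call was lost without CO Cfib 2 and without PH Cfib 1, 2 or 3 (adjusted p 0.0775 to 0.137), and the CTBP2 call without PH Cfib 3 (adjusted p = 0.0553). Of 14 genes known to respond to Notch, 2 were listed, SNAI1 (1.08) and CDKN1A (−0.40). DTX3 was not called after the rescaling by the median of ratios (adjusted p = 0.213).

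Cell type markers moved in the Cfib libraries as well. The 4 listed fibroblast markers all rose and summed to 2225 to 3129 in CO and 7245 to 7575 in PH Cfib, and the 7 listed smooth muscle and pericyte markers (6 higher, 1 lower) to 102.8 to 140.3 and 237.6 to 247.8. The 5 listed mesothelial markers all rose and summed to 6.938 to 12.45 in CO and 71.73 to 73.7 in PH, with KRT8 at 0 in all CO libraries. The 5 listed macrophage markers (4 higher, and CD14 lower by a log2 fold change of −1.42) summed to 12.95 to 15.66 and 16.43 to 17.57. The 2 listed endothelial markers moved apart, ERG by 0.96 and ESAM by −1.08, and summed to 7.447 to 8.872 and 5.883 to 6.737, and none of 14 cardiomyocyte markers was listed. In bulk RNA, fewer cells of a type and less RNA per cell cannot be told apart, and the part of these markers in the Wnt and Notch values was not tested.

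In ARVM, 39 of the 42 members passed the test, 30 higher and 9 lower in PH-CM than in freshly isolated cells, beside 53.9% of all listed genes called higher and 43.7% called lower. Of 28 Wnt members, 22 rose, 4 fell and 2 did not pass. Of 13 Notch members, 7 rose, 5 fell and 1 did not pass. The median log2 fold change was 1.38 over the Wnt members and 0.84 over the Notch members, against 0.37 over all listed genes, and the members ran from −3.72 for Dll1 to 7.64 for Rspo1 on the value + 1 scale. The values are reads per gene divided by 1 size factor a library, from 12122463 to 18842171 reads on the listed genes, and are not scaled by gene length, so levels are compared only within a gene.

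**Figure D2:**
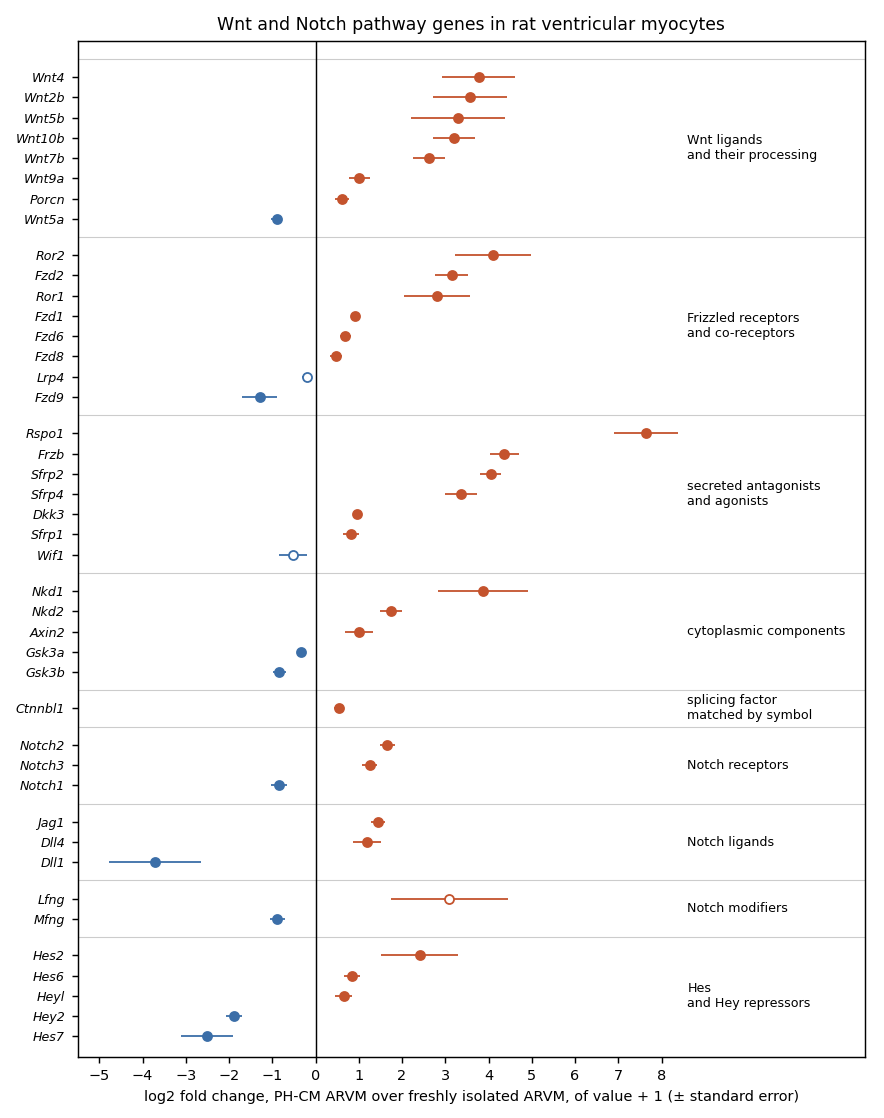
Log2 fold change of value + 1, PH-CM over freshly isolated ARVM, for the 42 members grouped by role, with the standard error from limma as a bar and open points for the 3 members that did not pass. Most Wnt ligands and secreted modulators lie to the right of 0 up to Rspo1 at 7.64, whereas the Notch members spread to both sides with Dll1 at −3.72.

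The markers of other cell types changed strongly between these groups. Over the libraries of a group, the 13 listed cardiomyocyte markers summed to 1928098 to 1956134 in freshly isolated ARVM and to 219176 to 271739 in PH-CM, with 12 lower and 1 higher. The 11 listed fibroblast markers all rose, with sums of 1846 to 2425 and 100061 to 144970. All 10 listed macrophage markers rose as well, with sums of 277.4 to 346.1 and 7799 to 11839. The 4 listed mesothelial markers had sums of 157.5 to 202.6 and 2076 to 4546, and the 10 smooth muscle and pericyte markers, 7 higher and 3 lower, sums of 6188 to 6922 and 33024 to 51176. Endothelial markers went the other way, with 10 of 11 lower and sums of 11137 to 13560 and 4722 to 5663. No listed marker was at 0 in every library of a group, and the part of these cells in each Wnt and Notch value was not tested.

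**Figure D3:**
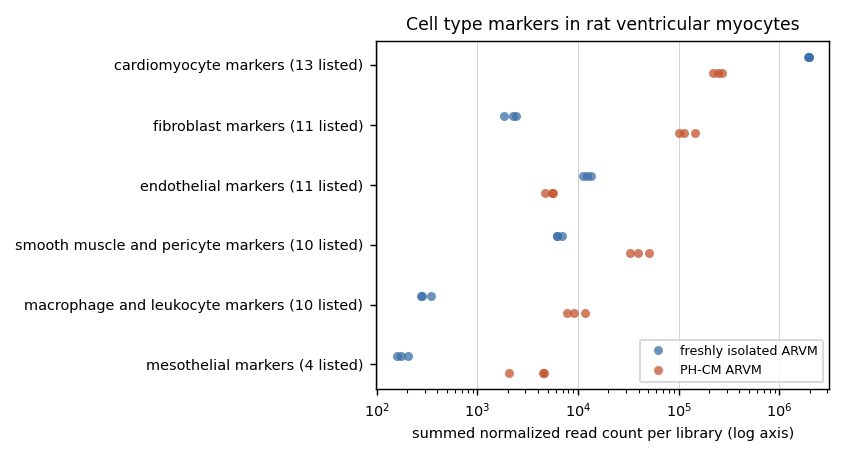
Summed normalized counts of the listed markers of 6 cell types in each ARVM library, on a log axis. Each point is a library, and the freshly isolated and PH-CM libraries lie apart for every list, with cardiomyocyte and endothelial sums lower and the other 4 sums higher in PH-CM.

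Among the Wnt ligands and their processing, 7 of 8 members rose and Wnt5a fell. Wnt4, a ligand of epithelial and mesenchymal conversion in the kidney, was 0, 0 and 7.23 in freshly isolated ARVM 4, 5 and 6 and 15.9, 31.1 and 38.1 in the PH-CM libraries ha2, ha209 and ha211, named and ordered here as the samples are labelled. These values rest on 7 and 102 reads, with a log2 fold change of 3.78 ± 0.84 (limma adjusted p = 0.00328), or 4.79 without freshly isolated ARVM 6. Wnt2b went from 0, 0 and 6.20 to 33.3, 9.49 and 32.2, on 6 and 93 reads. The log2 fold change came to 3.56 ± 0.86 (limma adjusted p = 0.00478), or 4.51 without freshly isolated ARVM 6. Wnt5b, close in sequence to Wnt5a, measured 19.0, 0 and 0 and then 25.0, 29.3 and 22.9. Its log2 fold change of 3.29 ± 1.09 (limma adjusted p = 0.0190) was 4.73 without freshly isolated ARVM 4, and the call was lost without freshly isolated ARVM 5 or 6 or PH-CM ha2 or ha209 (adjusted p 0.0603 to 0.0632).

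Wnt10b and Wnt7b, both canonical ligands, had no read in any freshly isolated library. Both thus met the authors' filter of a value above 1 only through PH-CM, which fixed their direction. Wnt10b was at 3.78, 10.4 and 13.5 in PH-CM, on 33 reads, and was 7.61-fold above a floor of 3 reads over the freshly isolated group. Wnt7b was at 3.78, 6.04 and 5.92, on 19 reads, and was 4.38-fold above that floor. Wnt9a, a ligand known from joint formation, rose from 71.2, 56.8 and 48.6 to 113, 110 and 134, a log2 fold change of 1.02 ± 0.24 (limma adjusted p = 0.00439). Porcn rose from 165, 149 and 188 to 240, 257 and 271, a log2 fold change of 0.62 ± 0.16 (limma adjusted p = 0.00645). Wnt5a, the main ligand of β-catenin-independent signaling, was the exception, falling from 538, 526 and 484 to 261, 311 and 260. That was a log2 fold change of −0.90 ± 0.12 (limma adjusted p = 0.000237). The change of its paralog Wnt5b had the opposite sign but depended on the test. On the recovered reads Wnt5b passed with edgeR (2.27, adjusted p = 0.0467) and not with DESeq2 (2.06, adjusted p = 0.123). It also did not pass with the unequal-variance test.

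Of 8 Frizzled receptors and co-receptors, 6 rose, Fzd9 fell and Lrp4 did not pass. Ror2, a receptor of Wnt5a, was at 14.2, 0 and 5.17 in freshly isolated ARVM and at 67.3, 77.6 and 88.0 in PH-CM. It rose by 4.10 ± 0.89 on the log2 scale (limma adjusted p = 0.00280), by 4.98 without freshly isolated ARVM 4 and by 3.01 without freshly isolated ARVM 5. Its relative Ror1 went from 3.17, 41.8 and 21.7 to 110, 111 and 109. The PH-CM libraries were nearly equal, and the freshly isolated ones spread so far that the log2 fold change of 2.80 ± 0.77 (limma adjusted p = 0.00836) was 1.84 without freshly isolated ARVM 4 and 3.52 without freshly isolated ARVM 5. Fzd2, a receptor of canonical and Wnt5a signals, rose from 52.2, 34.3 and 17.6 to 322, 240 and 311, an 8.39-fold higher mean and a log2 fold change of 3.15 ± 0.39 (limma adjusted p = 0.000142).

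The remaining receptors changed less. Fzd1 went from 959, 1211 and 1128 to 2157, 2054 and 1968, a log2 fold change of 0.91 ± 0.09 (limma adjusted p = 5.46e-05). Fzd6, a receptor of planar cell polarity, rose by 0.69 ± 0.13 and Fzd8 by 0.47 ± 0.14 on the log2 scale (limma adjusted p = 0.00135 and 0.0130). Fzd9 fell from 20.6, 28.9 and 36.2 to 6.81, 11.2 and 16.1, a log2 fold change of −1.29 ± 0.41 (limma adjusted p = 0.0160). Lrp4, a co-receptor relative that also serves the neuromuscular junction, was at 329, 342 and 329 and then at 271, 305 and 302. As for every listed gene, its groups did not overlap, yet its log2 fold change of −0.19 ± 0.12 did not pass (limma adjusted p = 0.149).

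The secreted modulators held the largest rises. Rspo1, an R-spondin that amplifies Wnt signals by sparing Frizzled receptors from turnover, was at 0, 5.36 and 0 in freshly isolated ARVM and at 484, 229 and 454 in PH-CM. All 5 freshly isolated reads came from 1 library, against 1443 reads in PH-CM. The log2 fold change was 7.64 ± 0.74 (limma adjusted p = 4.01e-05), or 8.53 without freshly isolated ARVM 5. Frzb, a soluble Frizzled-related antagonist known from cartilage, was without a read in the freshly isolated libraries and had values of 20.4, 19.8 and 18.6 in PH-CM. On 72 reads it was at least 16.6-fold higher. Sfrp2, its relative of fibroblasts, rose from 38.0, 48.2 and 48.6 to 839, 546 and 936, a 17.2-fold higher mean and a log2 fold change of 4.05 ± 0.24 (limma adjusted p = 2.85e-06).

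Sfrp4, another soluble Frizzled-related protein, was without a read before culture and stood at 9.07, 12.9 and 6.77 in PH-CM, on 35 reads. That was 8.07-fold above the floor of 3 reads, and Sfrp4 too met the authors' filter only through PH-CM. Dkk3, a divergent Dkk protein, was well expressed in both states and rose from 2608, 2847 and 2754 to 5681, 4937 and 5273, a log2 fold change of 0.95 ± 0.07 (limma adjusted p = 7.66e-06). Sfrp1 rose from 127, 141 and 110 to 206, 254 and 204 (log2 fold change 0.81 ± 0.19, limma adjusted p = 0.00376). Wif1, a secreted protein that binds Wnts directly, was at 15.8, 21.4 and 21.7 and then at 15.1, 12.9 and 11.8. On 51 and 49 reads its log2 fold change of −0.52 ± 0.32 did not pass (limma adjusted p = 0.144).

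Of the 5 intracellular Wnt components, the feedback inhibitors rose and the kinases fell. Nkd1 and Nkd2, Naked cuticle proteins that restrain Dishevelled, both rose. Nkd1 went from 0, 0 and 16.5 to 38.6, 29.3 and 44.9 on 16 and 138 reads, a log2 fold change of 3.87 ± 1.05 (limma adjusted p = 0.00814) that was 3.18 without freshly isolated ARVM 4 or 5 and 5.25 without freshly isolated ARVM 6. Nkd2 rose from 63.3, 87.8 and 58.9 to 264, 176 and 275, a log2 fold change of 1.75 ± 0.26 (limma adjusted p = 0.000396). Axin2, a target and inhibitor of β-catenin signaling that is often read as a reporter of it, rose from 19.0, 12.9 and 24.8 to 37.8, 38.8 and 36.4. Axin2 had a log2 fold change of 1.01 ± 0.33 (limma adjusted p = 0.0189), and 0.98 with an adjusted p of 0.0630 by DESeq2 on the recovered reads. Gsk3b, a kinase of the destruction complex, fell from 861, 872 and 950 to 484, 619 and 421, a log2 fold change of −0.83 ± 0.14 (limma adjusted p = 0.000822). Its paralog Gsk3a fell from 692, 800 and 775 to 588, 613 and 589, a log2 fold change of −0.34 ± 0.09 (limma adjusted p = 0.00657). Ctnnbl1, the splicing factor, rose by 0.54 ± 0.12 (limma adjusted p = 0.00285).

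The 3 Notch receptors did not move together. Notch2 rose from 260, 406 and 380 to 1009, 1033 and 1217, a log2 fold change of 1.66 ± 0.18 (limma adjusted p = 6.34e-05). Notch3 rose from 370, 271 and 257 to 619, 688 and 834, by 1.26 ± 0.17 on the log2 scale (limma adjusted p = 0.000269). Notch1 fell from 587, 513 and 443 to 225, 335 and 306, a log2 fold change of −0.84 ± 0.18 (limma adjusted p = 0.00264). Thus 2 receptors rose and 1 fell.

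**Figure D4:**
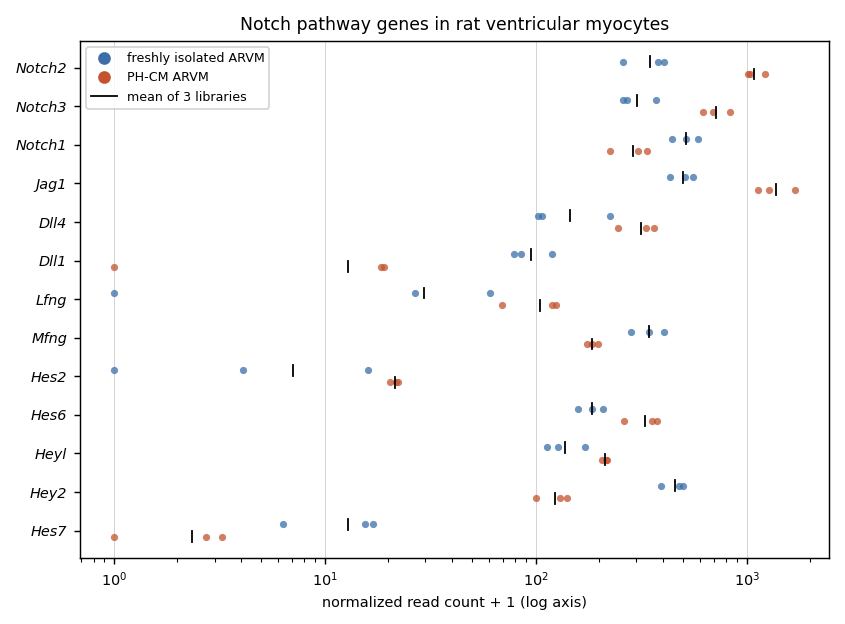
Normalized counts of the 13 Notch members in each ARVM library, 1 line a gene, as the count + 1 on a log axis, with the mean of 3 libraries as a bar. Notch2, Notch3, Jag1 and Dll4 are higher and Notch1, Dll1, Mfng, Hey2 and Hes7 lower in the PH-CM libraries. The groups do not overlap, as for all 7052 listed genes.

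The Notch ligands were likewise divided. Jag1 rose from 555, 509 and 431 to 1276, 1131 and 1700, a log2 fold change of 1.44 ± 0.16 (limma adjusted p = 8.91e-05). Dll4, the Delta-like ligand of sprouting vessels, measured 225, 102 and 106 and then 244, 362 and 333, so that freshly isolated ARVM 4 came close to the lowest PH-CM library. Dll4 rose by a log2 fold change of 1.19 ± 0.32 (limma adjusted p = 0.00825). Dll1 fell from 83.9, 119 and 77.5 to 17.4, 18.1 and 0. The log2 fold change of −3.72 ± 1.06 (limma adjusted p = 0.0103) was −2.31 without PH-CM ha211, the library at 0, and −4.41 and −4.44 without ha2 and ha209.

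Both Fringe modifiers were listed. Lfng was at 0, 60.0 and 25.8 in freshly isolated ARVM and at 118, 68.2 and 124 in PH-CM. The groups did not overlap, as for every listed gene, but the log2 fold change of 3.10 ± 1.35 did not pass (limma adjusted p = 0.0529). It passed without freshly isolated ARVM 4 (1.32, adjusted p = 0.0245) or 5 (4.28, adjusted p = 0.0151), and with edgeR on the recovered reads (1.75, adjusted p = 0.0336). With DESeq2 on the same reads Lfng did not pass (1.83, adjusted p = 0.191). Mfng, its paralog, fell from 405, 345 and 282 to 175, 196 and 184, a log2 fold change of −0.88 ± 0.17 (limma adjusted p = 0.00155).

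Among the Hes and Hey repressors, 3 rose and 2 fell. Hey2, a repressor of the compact ventricular myocardium, fell from 475, 498 and 390 to 99.1, 139 and 129. Hey2 had a log2 fold change of −1.89 ± 0.18 (limma adjusted p = 4.01e-05), the lowest adjusted p among the members that fell. Hes7, the oscillator of the segmentation clock, fell from 15.8, 5.36 and 14.5 to 2.27, 1.73 and 0 on 29 and 5 reads, a log2 fold change of −2.51 ± 0.60 (limma adjusted p = 0.00463). Hes2 went from 0, 15.0 and 3.10 to 21.2, 20.7 and 19.5. Its log2 fold change of 2.41 ± 0.89 (limma adjusted p = 0.0294) was lost in 5 of 6 fits that left out 1 library, and passed without freshly isolated ARVM 5 (3.40, adjusted p = 0.00215). Without freshly isolated ARVM 4 it was 1.40 (adjusted p = 0.0528), and without freshly isolated ARVM 6 or any PH-CM library it stayed near 2.4 with adjusted p from 0.0595 to 0.0834. Hes6, which opposes Hes1, rose from 158, 208 and 183 to 374, 262 and 354 (log2 fold change 0.84 ± 0.19, limma adjusted p = 0.00340). Heyl rose from 169, 126 and 113 to 217, 204 and 214 (log2 fold change 0.66 ± 0.20, limma adjusted p = 0.0130).

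The median spread within both groups of ARVM libraries was larger for the members than for all listed genes. The median coefficient of variation of the members was 20.0% in freshly isolated and 15.4% in PH-CM libraries, beside 9.74% and 10.1% over all listed genes. Only 28 of the 42 members had a mean of at least 50, and the part of low counts in this spread was not tested. Freshly isolated ARVM 4, the library with the fewest reads, lay farthest from its group mean for 22 of the 42 members.

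Of the same 129 companion symbols, 54 were listed for ARVM, and 35 rose, 16 fell and 3 (Vangl2, Amer1 and Dtx3l) did not pass. Of all listed ARVM genes, 53.9% were called higher and 43.7% lower. Among 21 listed genes of the other Wnt components, 11 rose and 8 fell. The highest were the pseudokinase co-receptor Ptk7 (log2 fold change 7.23), the glypican Gpc3 (4.61) and the Dishevelled antagonist Dact3 (3.38), and the lowest the Dishevelled inhibitor Cxxc4 (−1.42), the co-repressor Aes (−1.29) and Camk2d (−0.90), a kinase of calcium signaling that cardiomyocytes express strongly. Ptk7 was 5.77 without freshly isolated ARVM 4, 8.08 without 5 and 7.83 without 6, and Gpc3 was 5.27 without 4 and 3.87 without 5. Vangl2 passed without freshly isolated ARVM 4, 5 or 6 (log2 fold change 2.62, 0.93 and 2.80, adjusted p = 0.0394, 0.0482 and 0.0240).

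Of 12 listed Wnt response genes, 8 rose and 4 fell, beside the same 53.9% and 43.7% of all listed genes. The matricellular genes Wisp1 (6.35) and Wisp2 (3.87) rose with Birc5 (5.42), and the BMP pseudoreceptor Bambi (−1.92), Ccnd2 (−0.76) and Myc (−0.68) fell. Without freshly isolated ARVM 6 the log2 fold change of Wisp1 was 7.30 and that of Birc5 6.07, and Birc5 was 4.15 and 6.04 without freshly isolated ARVM 4 and 5. Among 16 listed other Notch pathway genes, 12 rose, led by the ubiquitin ligase Dtx4 (5.09), the non-canonical ligand Dlk2 (2.57) and Numbl (2.11), and 3 fell, namely Neurl3 (−2.21), the endothelial gene Egfl7 (−1.40) and the γ-secretase subunit Psenen (−0.55). Dtx4 was 6.10 without freshly isolated ARVM 6, and Dlk2 3.46 without freshly isolated ARVM 5. Of 8 listed Notch response genes, 6 rose, with Snai2 (3.73, or 4.60 without freshly isolated ARVM 6), Snai1 (3.57) and Ccnd1 (1.86) highest, and Gata2 (−2.22) and Myc fell. Myc, Ccnd1 and Snai2 belong to both response lists. These response genes are also regulated by other signals.

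The 8 members listed in both species made up 53.3% of the bovine and 19.0% of the rat members, beside 1178 shared genes that were 55.7% of the Cfib list and 16.7% of the ARVM list. Of the 8, 7 were higher in PH Cfib and higher in PH-CM ARVM, and FZD1 was lower in the first and higher in the second. For all shared genes, 42.1% were higher in both, 13.6% lower in both, 16.9% higher in Cfib only and lower in ARVM, and 27.4% the reverse. HEYL changed by 1.94 in Cfib and 0.66 in ARVM on the log2 scale, JAG1 by 0.86 and 1.44, and PORCN by 0.49 and 0.62. ROR2 changed by 0.54 and 4.10, SFRP2 by 1.27 and 4.05, and WNT2B by 0.87 and 3.56. With a pseudocount of 0.1 the Cfib value of WNT2B was 2.12 and that of HEYL 3.20. LFNG changed by 1.90 in Cfib, and its ARVM value of 3.10 did not pass the test. FZD1 was at −0.38 and 0.91. The values were made in 2 species and on 2 scales, so the sizes are set side by side and the difference between the experiments was not tested.

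**Figure D5:**
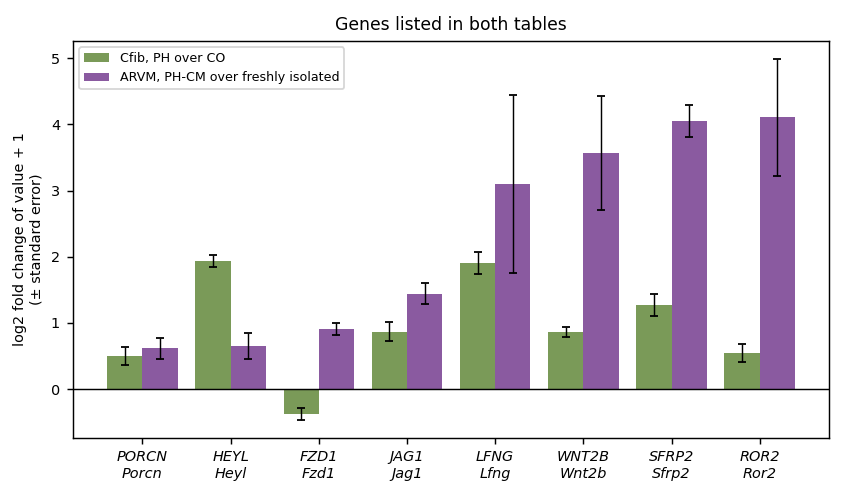
Log2 fold change of the 8 members listed in both species, PH over CO in Cfib and PH-CM over freshly isolated in ARVM, with the standard error from limma as a bar. All pairs of bars point upward but FZD1, which is at −0.38 in Cfib and 0.91 in ARVM.

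Of the companion genes, 13 were listed and called in both species, 9 of them higher in both, none lower in both and 4 in opposite directions. Among all shared genes, 42.1% were higher in both and 13.6% lower in both. A further 16.9% were higher in Cfib and lower in ARVM, and 27.4% the reverse. PTK7, GPC3, PRICKLE1, PYGO2, TLE3, WISP2, PSEN2, NUMBL and SNAI1 rose in both. In Cfib, PYGO2 and TLE3 were not called after the rescaling by the median of ratios (limma adjusted p = 0.0610 and 0.277). The ARVM call of Pygo2 was lost without freshly isolated ARVM 4 or PH-CM ha2 or ha211 (limma adjusted p 0.0606 to 0.0759). BIRC5 fell in PH Cfib (−3.28) and rose in PH-CM ARVM (5.42), as did the cell cycle inhibitor CDKN1A (−0.40 and 0.71). BAMBI and CCND2 rose in PH Cfib (0.56 and 0.52) and fell in PH-CM ARVM (−1.92 and −0.76). Genes outside the naming rule were named here after their values were seen.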

How the data were processed

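Libraries of Cfib and ARVM were sequenced, and the authors made the tables with HISAT2 and StringTie on bosTau8 and rn6 and a geometric normalization with DESeq2 (versions not given in the sources used here). They kept genes with an expression value above 1 in a condition and p under 0.05. The deposited ARVM signal is a read count divided by a size factor: 100% of values came out as whole reads within 0.01 reads. The deposited Cfib signal was normalized, but its values are not whole multiples of 1 step a library, and whether they are scaled by gene length was not settled. Each table was fitted whole with limma 3.58.1 (eBayes with a trend, R 4.3.3) on log2(value + 1). P-values were adjusted by Benjamini and Hochberg's method across all genes of a table, with a threshold of 0.05. The study's methods name an unequal-variance test, which was run as an alternative. A gene at 0 in a group was compared with a floor of 3 reads over the group (counting error alone). The reads of the other group were taken without their own counting error, so the fold is not a strict lower bound. An exact permutation test of 3 against 3 libraries cannot go below p = 0.1.

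The alternatives were pseudocounts of 0.1 and 10, a minimum mean of 5 (Cfib) or 50 (ARVM), median-of-ratios scaling, no trend, a log2 fold change of at least 1, leaving out each library and, on the recovered ARVM reads, edgeR 4.0.16 and DESeq2 1.42.0. For Cfib, a replicate block and averaged PH libraries were added. All members were named, every bovine member and, in ARVM, at least the 3 members of each role with the largest change were given by library, and of the companion lists up to 3 called genes a list and direction. The members and lists were chosen with earlier results of these data known. Sequences come from RefSeq, and no bovine ones were used.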

Additional observations from a re-analysis of the deposited data

How the results depend on the processing

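In Cfib, the 15 calls among the members (12 higher, 3 lower) became 5 (5 higher, 0 lower) with the PH libraries averaged (an arm of 1 that is assumed to vary like the CO libraries, so it says nothing of single members) and 6 (6 and 0) with a log2 fold change of at least 1. The higher calls became 7 under the median of ratios and 7 with the unequal-variance test. Only AXIN1 reversed, to −0.0528 (adjusted p = 0.511) under the median of ratios. The 22 calls among other pathway genes (17 higher, 5 lower) became 10 (8 and 2) with the averaged PH libraries and 8 (7 and 1) at a log2 fold change of at least 1, and the higher calls 11 under the median of ratios. In ARVM, the same fold change requirement left 25 members (4 lower) and 28 other genes (22 higher, 6 lower). The cause of each change was not tested, except that the fold change requirement removes genes by construction. Leaving out 1 library gave 12 to 15 Cfib members (10 to 12 higher, 2 to 3 lower), 20 to 22 other Cfib genes (17 higher, 3 to 5 lower), 37 to 39 ARVM members (28 to 30 higher, 9 lower) and 48 to 50 other ARVM genes (33 to 35 higher, 15 to 16 lower). With the replicate block, 14 Cfib members were called: CTNNB1 was lost (adjusted p = 0.0594). Of the other pathway genes, APH1A was lost (adjusted p = 0.0906), which left 21. Deviations of same-numbered CO and PH Cfib libraries correlated at 0.258, 0.0312 and 0.259, so the numbers were not taken to pair them. For 5 of the 6 Cfib libraries the best match was the library with the same number, a hint from the data and not from the design. No paired analysis was possible for ARVM because the groups share no replicate numbers. Over 14 refits, 29 of 42 ARVM members kept their call in each that included them. In Cfib, the averaged PH libraries left aside, CTNNB1, AXIN1, ROR2, PORCN, HES1, TCF7L2 and FZD4 lost their call in some refit. The other Cfib members kept theirs in each refit that included them. The unequal-variance test lost 5 Cfib and 11 ARVM members, and Wif1 passed only without the trend (adjusted p = 0.0207). Few reads limit Wnt7b, Wnt10b, Sfrp4 and Hes7, and the Cfib depth is unknown.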
